A study of Mus musculus with 4 samples.

Results

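The genes described here are the 10 interleukin-1 and inflammasome genes Il1a, Il1b, Il1rn, Il1r2, Il18, Nlrp3, Casp1, Casp4, Pycard and Gsdmd. They were taken by symbol from the 32285 genes of the deposited single-cell count tables, and all 10 were found. Cells had been sorted for CD45, which marks leukocytes, from brains of wild-type C57Bl/6 mice on day 3 after surgery. The 4 groups were aged mice (18 to 20 months) after cardiac arrest (CA) and resuscitation, aged mice after sham surgery, young mice (3 to 6 months) after CA, and young mice after sham surgery. CA had been brought on with potassium chloride, and sham animals had the same surgery without the arrest. Each group was 1 library made from 3 pooled mice, so no value has a spread between animals and no test between groups was possible. All intervals are 95% intervals and cover counting error only.

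Interleukin-1 alpha and interleukin-1 beta are cytokines that act on the same receptor and start fever and inflammation. Il1rn encodes an antagonist that occupies this receptor without signalling, and Il1r2 a decoy receptor that binds the cytokine and does not signal. Interleukin-1 beta and interleukin-18 are made as inactive precursors. An inflammasome, in which the sensor Nlrp3 and the adaptor ASC (gene Pycard) gather caspase-1 (Casp1), cuts both precursors and gasdermin D (Gsdmd), whose fragment forms pores in the cell membrane. Mouse Casp4, also called caspase-11, senses bacterial lipopolysaccharide in the cytosol and cuts gasdermin D as well. Transcript counts say nothing about this cutting. Microglia are the resident macrophages of the brain, and monocytes and neutrophils enter from the blood.

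Unique molecular identifiers (UMIs), each standing for 1 captured transcript, were counted in 6794 aged CA, 7700 aged sham, 10794 young CA and 9038 young sham barcodes. After filters 5611, 7083, 9310 and 8120 cells were left in that order of groups, with a median of 10352, 3278, 9592.5 and 6026.5 UMIs. Cells were placed in classes by marker genes, and none of the 10 genes was a marker. Microglia made up 4811, 5677, 8589 and 7665 cells. The other myeloid classes were small: 68, 20, 279 and 13 monocytes or macrophages, 73, 106, 27 and 14 neutrophils, and 46, 18, 43 and 65 border-associated macrophages. Ptprc, which encodes CD45, stood at 405 to 495 UMIs per 1000000 UMIs of the class (CPM) in microglia and at 7.56 to 25.5 CPM in neurons, which were nevertheless found in every library. The 12 microglial markers were all seen in microglia of all 4 libraries, at a summed 9761 CPM in aged CA, 19930 in aged sham, 14831 in young CA and 23921 in young sham. Aged sham stood apart, with the lowest depth and with 65.0 CPM of haemoglobin transcripts in microglia against 1.19 to 3.05 CPM in the other libraries. The median mitochondrial share of microglia was 3.68% in aged CA, 1.89% in aged sham, 2.58% in young CA and 1.66% in young sham, and 902, 162, 663 and 308 barcodes lay over the limit. It was thus higher in both CA libraries, and its part in the results was not tested. Pairs of libraries shared 15 to 32 barcodes, at most 0.416% of a library.

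In the GENCODE M21 annotation of GRCm38, all 10 are protein-coding genes. The cytokine genes and the antagonist were Il1a at chr2:129299610-129309972 (minus strand), Il1b at chr2:129364570-129371139 (minus strand), Il1rn at chr2:24336853-24351494 (plus strand) and Il18 at chr9:50554827-50581840 (plus strand). The decoy receptor gene was Il1r2 at chr1:40074079-40125231 (plus strand). The inflammasome genes were Nlrp3 at chr11:59541568-59566956 (plus strand), Pycard at chr7:127989708-127993867 (minus strand), Casp1 at chr9:5298517-5307265 (plus strand), Casp4 at chr9:5308828-5336783 (plus strand) and Gsdmd at chr15:75862327-75867408 (plus strand).

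Il1a and Il1b lie beside each other on mouse chromosome 2 and Casp4 lies on chromosome 9. Their promoters are shown because these are 3 of the genes with the clearest differences described below, and the windows let a reader see which core letters stand at their starts. Of the 10 genes, 9 had a window in the RefSeq table (GRCm38.p6), which runs from 250 bases before to 50 bases after a transcript start, and Casp4 is shown with the first of its 2 windows. Sequences read 5′ to 3′ on the gene's strand, and capitals mark every match to the motifs named below.
Il1b, chr2:129371090-129371389, minus strand: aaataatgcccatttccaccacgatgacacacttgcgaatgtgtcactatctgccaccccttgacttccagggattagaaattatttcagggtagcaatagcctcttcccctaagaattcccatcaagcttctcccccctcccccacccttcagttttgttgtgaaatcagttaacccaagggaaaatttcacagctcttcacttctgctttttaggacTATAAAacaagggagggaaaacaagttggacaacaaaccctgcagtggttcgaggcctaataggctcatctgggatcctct
Il1a, chr2:129309923-129310222, minus strand: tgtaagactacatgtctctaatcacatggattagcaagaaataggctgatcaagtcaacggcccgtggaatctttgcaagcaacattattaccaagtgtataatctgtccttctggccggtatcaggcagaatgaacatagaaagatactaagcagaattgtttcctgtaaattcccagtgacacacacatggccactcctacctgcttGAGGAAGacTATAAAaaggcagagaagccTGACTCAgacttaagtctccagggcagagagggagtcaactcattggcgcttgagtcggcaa
Casp4, chr9:5308599-5308898, plus strand: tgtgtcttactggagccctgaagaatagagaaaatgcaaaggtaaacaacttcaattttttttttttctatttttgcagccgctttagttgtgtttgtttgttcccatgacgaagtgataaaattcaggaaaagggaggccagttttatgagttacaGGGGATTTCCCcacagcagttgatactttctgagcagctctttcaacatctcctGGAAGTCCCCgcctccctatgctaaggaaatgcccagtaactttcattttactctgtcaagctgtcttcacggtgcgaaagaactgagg
Both strands were searched for the NF-kB consensus, the interferon-stimulated response element (GAAA, any 2 bases, GAAA), the AP-1 site TGANTCA, the TATA box TATAAA, the C/EBP core TTGCNNAA and the PU.1 core GAGGAAG. The TATA letters stood at -31 to -26 from the transcript start of Il1b and at -32 to -27 from that of Il1a, and 13.6% of all 32851 windows held them. Il1a also held the PU.1 core at -41 to -35 and the AP-1 site at -12 to -6, which were in 13.6% and 7.81% of windows. Casp4 held overlapping matches to the NF-kB consensus between -93 and -83 and a match on the other strand at -39 to -30, and 8.46% of windows held at least 1 match. The windows of Il1r2 and Casp1 held none of these motifs, nor did window 2 of the 3 windows of Il1rn. A match is a description of letters and was not tied to any measurement here.

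Among microglia, Il1b, Il1rn and Il1r2 had the greatest ratios of CA to sham at both ages, and Il1a and Il1b were higher in aged than in young mice under both surgeries. Nlrp3 and Casp1 were at most 1.27-fold apart in any of the 4 comparisons. A level is the UMIs of a gene summed over the cells of a class, given as CPM of that class. Ratios are CA over sham or aged over young, and a gene was called at 2-fold or more if it reached 10 CPM in at least 1 of the 2 groups. In aged microglia 9 of the 10 genes reached that level. Of these, 3 were called higher after CA (Il1b, Il1r2 and Casp4) and 0 lower, where 6.33% of all 9837 measured genes were called higher and 10.2% lower (8.74% and 8.37% with TMM scaling, which corrects for differences in RNA composition). In young microglia 8 genes reached it, 1 was called higher after CA (Il1r2) and 0 lower, where the share of all 9573 measured genes was 6.47% higher and 3.22% lower (8.35% and 2.29% with TMM scaling). Il1r2 reached the level only in the CA libraries, so with sham levels of 2.55 and 1.27 CPM it could not have missed the fold, and the same holds for Il1b in the sham comparison, where young mice had 2.36 CPM. For aged over young after CA, 9 genes reached the level, 2 were called higher (Il1a and Il1b) and 0 lower, against 2.33% and 3.39% of 9409 measured genes. For aged over young in sham, 8 genes reached it, Il1a and Il1b were again the 2 called higher and 0 were lower, against 3.65% and 0.157% of 9543 genes. With the mean over cells of CPM in place of the sum, 0 genes were called for age in sham, since Il1a had a log2 ratio of 0.87 and Il1b, at 2.30, was under 10 CPM in both groups. The comparisons share libraries, so they are not independent of each other.

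**Figure D1:**
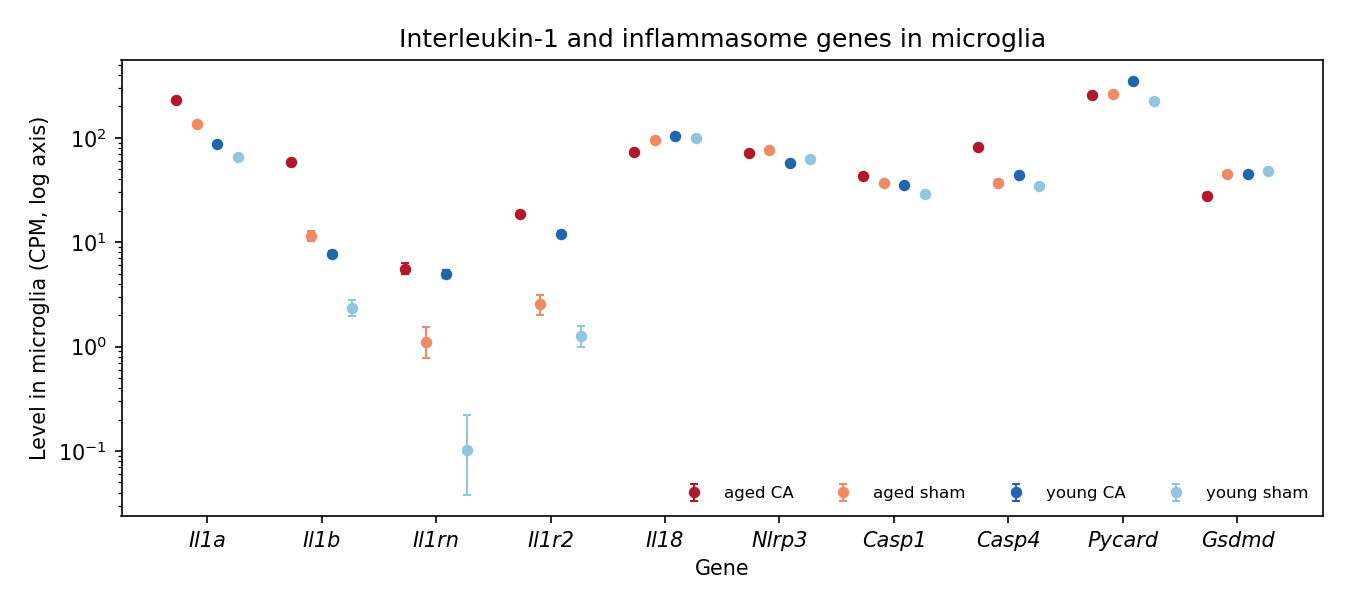
Level of each gene in microglia (CPM, log axis) in the aged CA, aged sham, young CA and young sham libraries, with exact Poisson 95% intervals that cover counting error only. Il1a and Il1b were highest in aged CA and lowest in young sham, and Il1rn and Il1r2 stood higher in both CA libraries than in both sham libraries.

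Il1b, the inflammasome-dependent ligand, had 58.7 CPM in aged CA microglia (3105 UMIs), 11.5 in aged sham (375 UMIs), 7.72 in young CA (696 UMIs) and 2.36 in young sham (138 UMIs). Both aged libraries were above both young ones, and each CA library was above its sham. The ratio of CA to sham was 5.10 (4.58 to 5.69) in aged mice and 3.27 (2.72 to 3.95) in young mice, the second from levels under 10 CPM. Aged over young came to 7.60 (6.996 to 8.26) after CA and 4.87 (3.99 to 5.96) in sham. Genes that report handling of cells as well as activation were also higher in aged microglia, with values given under Il1a. Their part in the Il1b levels was not tested. With every cell thinned to 1000 UMIs, the share of microglia with an Il1b UMI was 3.00% in aged CA, 0.834% in aged sham, 0.438% in young CA and 0.126% in young sham. Thinning left out 47, 640, 134 and 517 shallower microglia in the same order. At full depth the shares were 11.3%, 2.29%, 3.12% and 0.874%. As a measure of free RNA, 0 of 119 thinned T or NK cells of aged CA had an Il1b UMI, at a median of 8882 UMIs before thinning against 10487 in microglia. A count of 0 allows a share of up to 2.52% when 3 counts are taken as its limit, and the Clopper-Pearson bound is 3.05%. In the 183 thinned T or NK cells of aged sham there were also 0, which allows up to 1.64% by 3 counts. At this depth these few cells therefore cannot tell the thinned microglial share of any of the 4 libraries from background. At full depth 1.68% of aged CA T or NK cells had an Il1b UMI, from 4 UMIs in all, against 11.3% of aged CA microglia. In aged sham the full-depth shares were 0.529% of T or NK cells, at a median of 8296 UMIs, and 2.29% of microglia, at 3410. No T or NK cell of young CA or young sham had one. The part of free RNA beyond these values was not tested.

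Between libraries, neutrophil transcripts in microglia were not ordered as Il1b was. The 10 neutrophil markers summed to 62.5 CPM in aged CA, 649 in aged sham, 14.5 in young CA and 31.2 in young sham, and all 10 were seen in each library. Per 1000 UMIs of S100a8, an abundant neutrophil transcript, microglia held 2193 Il1b UMIs in aged CA, 47.7 in aged sham, 1950 in young CA and 216 in young sham, where neutrophils held 6.14 in aged CA, 2.13 in aged sham and 1.48 in young CA. The 10 monocyte markers summed to 19.04, 45.0, 72.9 and 24.9 CPM in microglia in the same order of groups. Without microglia that carried a UMI of S100a8, S100a9, Ccr2 or Ly6c2, an alternative chosen after the data were seen, the Il1b log2 ratio of CA to sham was 1.98 in aged mice, against 2.35 with all microglia. Within aged CA microglia thinned to 5000 UMIs, S100a8 was higher in cells with more Il1b, at 61.3 CPM with 2 or more Il1b UMIs, 26.0 with 1 and 16.7 with 0. The part of neutrophil and monocyte transcripts in the Il1b levels beyond these values was not tested.

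The Il1b transcripts sat in few cells. In aged CA microglia 50% of the UMIs came from 52 of 4811 cells, or 1.08%, and 4267 cells had none. Microglia with 10 or more Il1b UMIs numbered 88 in aged CA, 5 in aged sham, 13 in young CA and 2 in young sham, and held 65.4%, 43.2%, 40.1% and 21.0% of the Il1b UMIs of their library. A single aged sham cell held 99 of 375 UMIs, and the aged sham level was 8.47 CPM without it and 6.55 without the 5 highest cells. Without the 5 highest cells Il1b was under 10 CPM in both sham groups, so its call for aged over young in sham was lost. With the 5 highest cells left out in each group, an alternative chosen after the data were seen, the log2 ratio of CA to sham in aged mice was 3.00. Of the 88 aged CA cells, 81 carried the microglial receptor gene P2ry12, which was also seen in 82.4% of aged CA monocytes or macrophages. S100a8 was seen in 27 of the 88, against 14.03% of all aged CA microglia, Ccr2 in 2 and Ly6c2 in 0. The summed neutrophil markers stood at 312 CPM in the 88 cells, against 62.5 CPM in all aged CA microglia, and the monocyte markers at 79.5 against 19.04 CPM. The microglial markers stood at 6970 CPM in the 88 cells and at 9852 CPM in the other aged CA microglia. Pycard was spread far more evenly, with 50% of its UMIs in 743 aged CA cells.

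**Figure D2:**
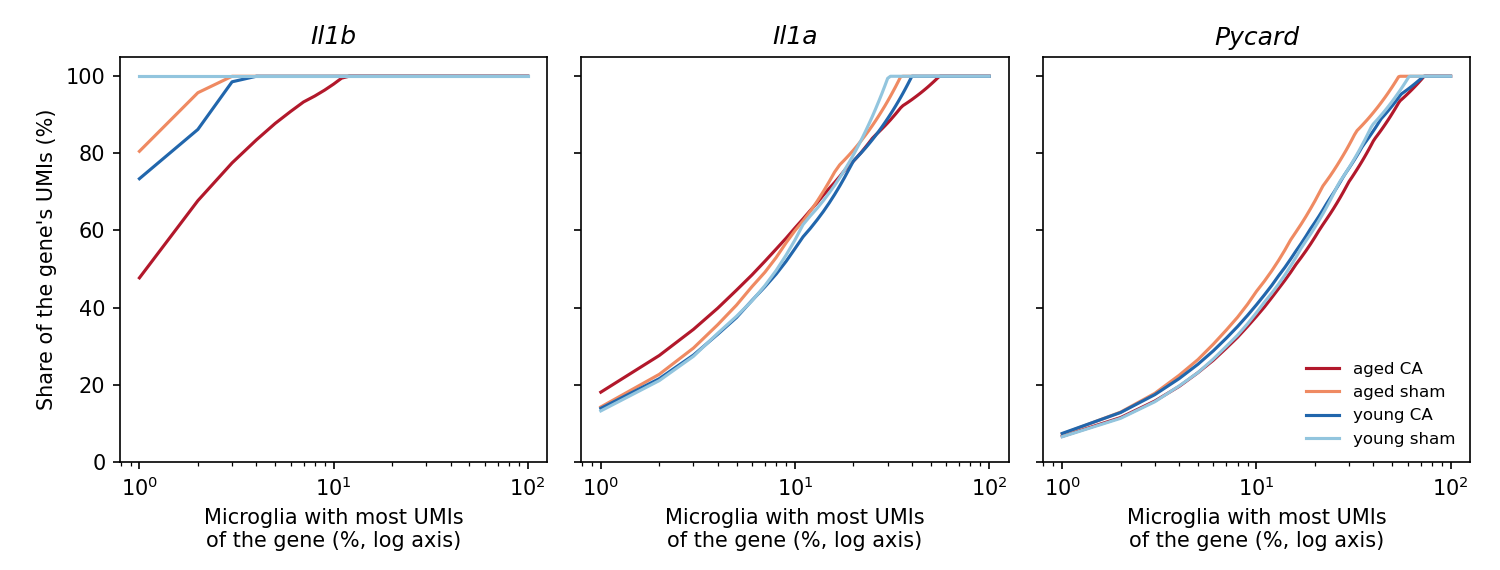
Share of a gene's UMIs (%) held by the microglia with most of them (%, log axis) for Il1b, Il1a and Pycard in each library. The top 1% of aged CA microglia held 47.7% of Il1b UMIs, 18.0% of Il1a UMIs and 6.57% of Pycard UMIs.

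Cells with Il1b also held more Il1a. Microglia of at least 5000 UMIs were thinned to that depth, and 173 of 3604 in aged CA then had 2 or more Il1b UMIs. These 173 cells had 1046 CPM of Il1a, against 168 CPM in the 3285 cells with no Il1b UMI. They had 162 CPM of Nlrp3 against 64.5, 148 CPM of Casp4 against 77.4, 23.1 CPM of Il1rn against 3.47, and 39.3 CPM of Casp1 against 46.5. The chemokine genes Ccl3 and Ccl4 stood at 6202 and 7921 CPM in these 173 cells, against 586 and 761 CPM in cells with none, and Tnf, another inflammatory cytokine gene, at 1299 against 194 CPM. P2ry12 stood at 573 CPM against 1035 CPM. In young CA only 38 of 5949 cells had 2 or more Il1b UMIs, and these had 421 CPM of Il1a against 82.7 CPM in cells with none, and 716 CPM of Ccl3 against 97.9 CPM. Monocyte transcripts were also higher in these 38 cells, with Ly6c2 at 26.3 against 5.02 CPM (5 UMIs in the 38 cells) and Ccr2 at 15.8 against 7.29 CPM (3 UMIs). In the 173 aged CA cells S100a8 stood at 61.3 against 16.7 CPM, and the part of these transcripts was not tested. Genes that report handling of cells were not summed by Il1b count, so their part was not tested either. All are cells of 1 library each, so these are descriptions of 2 libraries.

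Il1a had 232 CPM in aged CA microglia (12273 UMIs), 137 in aged sham (4473), 86.6 in young CA (7804) and 66.3 in young sham (3869). It followed the same order of libraries as Il1b with smaller steps. Aged over young was 2.68 (2.60 to 2.76) after CA and 2.07 (1.98 to 2.16) in sham, and CA over sham was 1.69 (1.63 to 1.75) in aged and 1.31 (1.26 to 1.36) in young mice. The thinned share of microglia with an Il1a UMI was 16.0% in aged CA, 11.1% in aged sham, 7.31% in young CA and 5.72% in young sham. Microglia held 95.6% to 99.4% of all Il1a UMIs of a library. A list of 12 dissociation and immediate early genes, which report handling of cells as well as activation, was also higher in aged microglia, at 1672 CPM in aged CA and 1752 in aged sham against 1113 in young CA and 997 in young sham, and its part in the result was not tested.

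**Figure D3:**
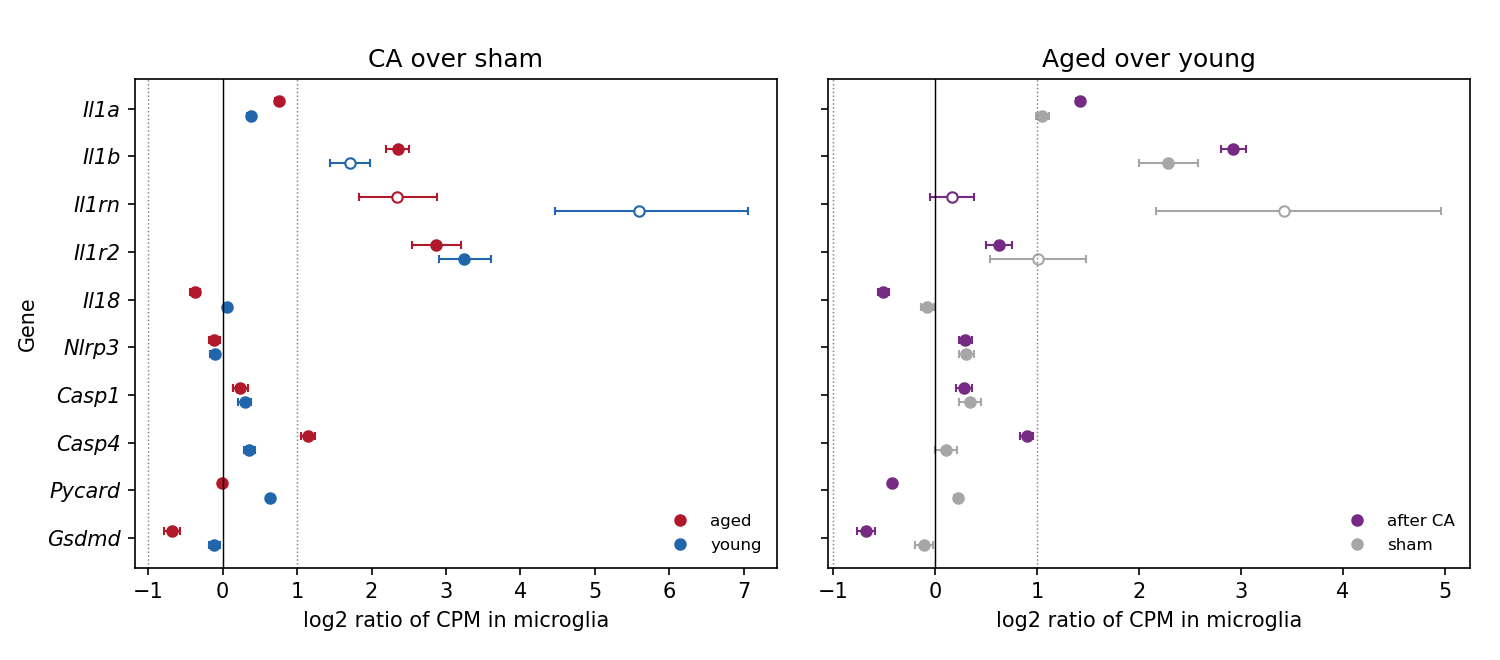
Log2 ratio of CPM in microglia for CA over sham (left, aged and young) and aged over young (right, after CA and in sham), with counting intervals; dotted lines mark 2-fold and open points mark genes under 10 CPM in both groups. Il1r2 lies beyond the dotted line after CA at both ages, and Il1a and Il1b lie beyond it with age in both surgeries.

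The inhibitors of interleukin-1 were low in sham microglia and higher after CA at both ages. Il1r2, the decoy receptor, had 18.6 CPM in aged CA (982 UMIs), 2.55 in aged sham (83), 11.99 in young CA (1081) and 1.27 in young sham (74). Both CA libraries stood above both sham libraries, with CA over sham at 7.28 (5.82 to 9.23) in aged and 9.46 (7.47 to 12.1) in young mice. Leaving out microglia with S100a8, S100a9, Ccr2 or Ly6c2 UMIs gave log2 ratios of 2.77 and 3.20, against 2.86 and 3.24 with all microglia. Aged over young was 1.55 (1.42 to 1.69) after CA and 2.01 (1.45 to 2.79) in sham. Thinned shares of cells with an Il1r2 UMI were 2.08%, 0.218%, 1.11% and 0.0839% in the order aged CA, aged sham, young CA and young sham. In T or NK cells of aged CA, used as a measure of free RNA, 2 of 119 thinned cells had an Il1r2 UMI, or 1.68% (0.204 to 5.94). The thinned share of aged CA microglia cannot be told from the share of these cells. Whether T or NK cells made the transcript themselves was not tested. The other libraries had 0 of 183, 0 of 38 and 0 of 54 such T or NK cells, which allows up to 1.64%, 7.89% and 5.56% by 3 counts, and their microglial shares lay below these limits. At full depth 4.20% of aged CA T or NK cells had an Il1r2 UMI, against 9.56% of aged CA microglia. In aged sham these shares were 0.529% and 1.43%. No T or NK cell of young CA or young sham had one, against 5.64% and 0.913% of microglia.

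Il1rn, the receptor antagonist, had 5.59 CPM in aged CA microglia (296 UMIs), 1.10 in aged sham (36), 4.98 in young CA (449) and 0.103 in young sham (6). It stayed under 10 CPM in every library and entered no count. CA over sham was 5.06 (3.57 to 7.37) in aged mice and 48.5 (22.1 to 133) in young mice, the second resting on 6 UMIs. Aged over young was 1.12 (0.966 to 1.30) after CA and 10.7 (4.48 to 31.2) in sham, again resting on 6 UMIs. The ratio after CA turned to log2 values of -0.32 with the mean over cells and -0.12 without microglia carrying S100a8, S100a9, Ccr2 or Ly6c2 UMIs. Il1b UMIs per Il1rn UMI came to 10.5 (9.31 to 11.9) in aged CA microglia, 10.4 (7.39 to 15.1) in aged sham, 1.55 (1.37 to 1.75) in young CA and 23.0 (10.3 to 63.8) in young sham. The value was thus lowest in young CA, and the 2 CA libraries were apart by more than their counting intervals. These intervals do not cover the spread over cells. The 5 cells with most Il1rn held 93 of its 296 UMIs in aged CA and 106 of its 449 in young CA microglia. Without them Il1rn had 3.85 and 3.81 CPM.

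Il18 was lowest in aged CA, where Il1b was highest. Its level was 73.6 CPM in aged CA microglia (3894 UMIs), 95.4 in aged sham (3108), 104.9 in young CA (9452) and 100.6 in young sham (5873), so the other libraries lay close together. CA over sham was 0.771 (0.736 to 0.809) in aged and 1.04 (1.01 to 1.08) in young mice, and aged over young was 0.702 (0.676 to 0.728) after CA and 0.948 (0.907 to 0.990) in sham. None of these reached 2-fold.

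Nlrp3, the sensor, stood at a like level in all libraries, and Pycard, the adaptor, was highest in young CA. Nlrp3 had 71.0 CPM in aged CA, 76.8 in aged sham, 57.8 in young CA and 62.2 in young sham microglia. Its CA over sham ratios of 0.925 (0.879 to 0.973) in aged and 0.929 (0.891 to 0.970) in young mice lay below 1 beyond counting error, but their log2 values turned to 0.02 and 0.02 with TMM scaling and to 0.0019 and 0.04 with cells thinned to 1000 UMIs. The ratios of aged over young were 1.23 (1.18 to 1.28) after CA and 1.23 (1.17 to 1.30) in sham. Pycard had 259.5 CPM in aged CA, 262 in aged sham, 349 in young CA and 225 in young sham. Its CA over sham ratio was 0.991 (0.964 to 1.02) in aged mice, with a log2 value of 0.12 under TMM scaling, and 1.55 (1.52 to 1.58) in young mice. Aged over young was 0.744 (0.729 to 0.759) after CA and 1.17 (1.13 to 1.20) in sham.

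The caspases differed from each other. Casp4 had 82.0 CPM in aged CA microglia (4340 UMIs), 37.0 in aged sham (1205), 44.03 in young CA (3969) and 34.3 in young sham (2005), so aged CA stood alone at the top. CA over sham was 2.22 (2.08 to 2.37) in aged and 1.28 (1.21 to 1.35) in young mice, and aged over young was 1.86 (1.78 to 1.94) after CA and 1.08 (1.001 to 1.16) in sham, where the log2 value turned to -0.19 with cells thinned to 1000 UMIs and to -0.0030 with the mean over cells. With 10 CPM added to both groups the log2 ratio of CA to sham in aged mice was 0.97 and the call was lost. Thinned shares showed the same order at the top, with 7.91% of microglia in aged CA, 3.34% in aged sham, 4.20% in young CA and 3.58% in young sham. Casp1 had 43.4, 36.9, 35.6 and 29.0 CPM in the order aged CA, aged sham, young CA and young sham, with CA over sham at 1.18 (1.10 to 1.26) in aged and 1.23 (1.16 to 1.30) in young mice. Its aged over young ratio was 1.22 (1.15 to 1.29) after CA and 1.27 (1.18 to 1.37) in sham.

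Gsdmd, the pore-forming substrate, was lowest where Casp4 was highest. It had 28.0 CPM in aged CA microglia (1484 UMIs), 44.9 in aged sham (1464), 44.8 in young CA (4042) and 48.4 in young sham (2828). CA over sham was 0.624 (0.580 to 0.671) in aged and 0.926 (0.882 to 0.971) in young mice, and the log2 value in young mice turned to 0.02 with TMM scaling. Aged over young was 0.625 (0.589 to 0.664) after CA and 0.927 (0.870 to 0.988) in sham. The share of aged CA microglia with a Gsdmd UMI was 2.69% at 1000 UMIs, against 4.53% in aged sham.

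**Figure D4:**
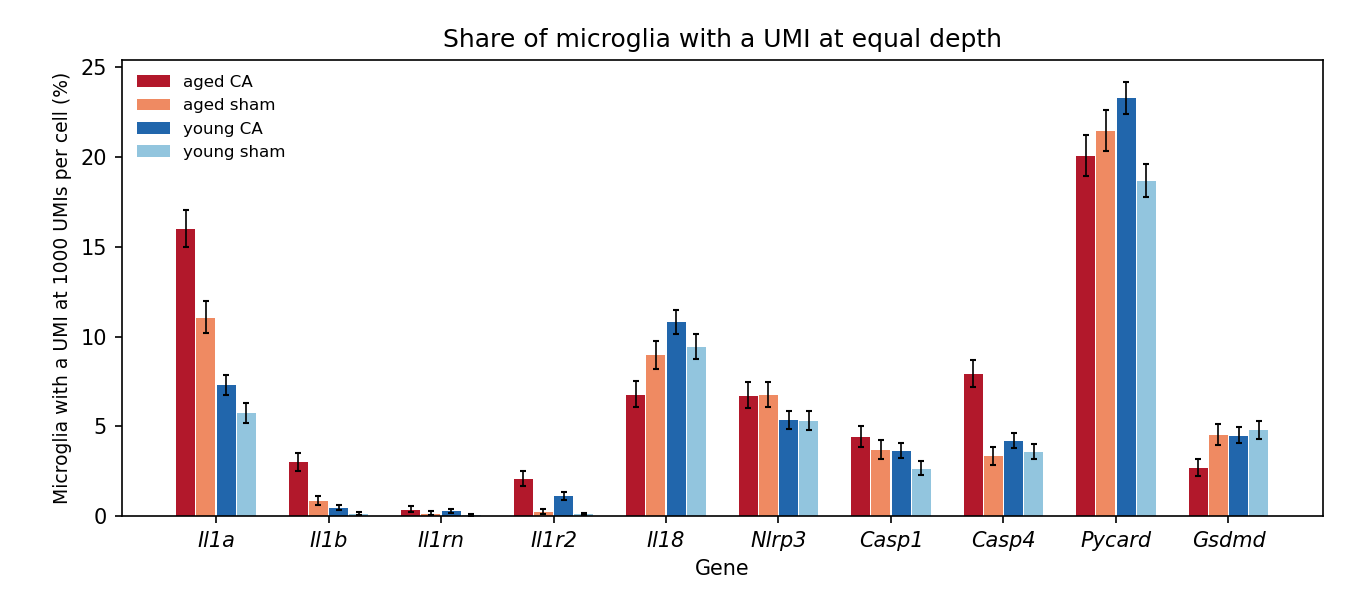
Share of microglia with at least 1 UMI of each gene after thinning every cell to 1000 UMIs (%), by library, with exact Clopper-Pearson 95% intervals. Casp4, Il1a, Il1b and Il1r2 were highest in aged CA, whereas Gsdmd and Il18 were lowest there.

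Outside microglia, Il1b, Il1rn and Il1r2 were found in monocytes, neutrophils and dendritic cells. Microglia held 56.8% of all Il1b UMIs in aged CA and 51.0% in young CA, monocytes or macrophages 21.6% and 26.6%, neutrophils 16.8% and 3.81%, and dendritic cells 0.604% and 5.86%. Mixed cells held 3.02% and 12.3%. Of the UMIs of all genes, microglia held 82.0% in aged CA and 89.0% in young CA, and monocytes or macrophages 2.93% and 5.38%. Neutrophils held 1.70% and 0.278% of them, dendritic cells 0.114% and 0.369%, and mixed cells 1.44% and 1.44%. Microglia thus held less of Il1b than of all UMIs. In young sham, with 212 Il1b UMIs in all, microglia held 65.1%, dendritic cells 13.7%, neutrophils 9.43% and monocytes or macrophages 5.19%. In monocytes or macrophages Il1b had 623 CPM in aged CA (1179 UMIs in 68 cells), 62.1 in aged sham (20 UMIs in 20 cells) and 66.7 in young CA (363 UMIs in 279 cells). The aged sham class also held 5 of 7 mast cell or basophil markers. They summed to 1021 CPM there, against 0 CPM in aged CA and 0 CPM in young CA, and their part was not tested. The 5 cells with most Il1b held 62.3% of the aged CA UMIs, and the level was 255 CPM without them. Aged over young after CA was 9.34 (8.30 to 10.5) for Il1b, 10.1 (8.60 to 11.998) for Il1r2, with 344 against 34.0 CPM, and 32.9 (21.3 to 53.5) for Il1a, with 133 against 4.04 CPM. The Il1a difference rested on few cells, because 45 of the 68 aged cells had none and the level without the top 5 was 46.4 CPM.

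Il1rn, Il18 and Gsdmd were lower in the aged CA than in the young CA monocytes. Il1rn had 54.4 CPM in aged CA and 117 in young CA (ratio 0.464, 0.373 to 0.572), Il18 had 54.4 and 101.4 (0.537, 0.430 to 0.663), and Gsdmd had 34.9 and 75.3 (0.463, 0.351 to 0.602). Other inflammasome genes did not all go this way. Without the 5 cells with most UMIs of a gene, Pycard had 469 CPM in aged CA and 301 in young CA, and Nlrp3 72.9 and 28.3. On the same measure Casp4 had 48.8 and 79.7 CPM, and Casp1 55.7 and 61.2. Il1b UMIs per Il1rn UMI came to 11.4 (9.35 to 14.1) in aged CA and 0.569 (0.499 to 0.648) in young CA monocytes. Cells gated as monocytes differed between these libraries in other markers. The 10 neutrophil markers summed to 14160 CPM in aged CA, with 8 of 10 seen and Camp and Ltf at 0, and to 168 CPM in young CA, with all 10 seen. S100a8 was seen in 48 of 68 aged CA cells and in 63 of 279 young CA cells, Retnlg in 4 and 4, and Cxcr2 in 10 and 1. Ly6c2, a marker of classical monocytes, stood at 184 CPM in aged CA and 1826 CPM in young CA. The part of these markers in the monocyte results was not tested.

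In neutrophils Il1b had 834 CPM in aged CA (73 cells), 243 in aged sham (106 cells) and 185 in young CA (27 cells). A single cell held 49.1% of the aged sham UMIs, and without the 5 highest cells the levels were 376, 23.5 and 23.1 CPM. Il1r2 had 933, 204 and 472 CPM and Il1rn 177, 104 and 46.1 CPM in the same 3 groups. The aged sham neutrophils were shallow, with a median of 1678 UMIs against 14079 in aged CA and 9426 in young CA. The 12 microglial markers summed to 3638 CPM in them, against 641 in aged CA and 848 in young CA neutrophils. The part of depth and of microglial transcripts in these levels was not tested. Young sham had 14 neutrophils and 13 monocytes, too few for a level. Border-associated macrophages held Casp4 at 113 CPM in aged CA, 49.6 in young CA and 61.8 in young sham, and Il1b at 12.01, 0 and 0 CPM, from 5, 0 and 0 UMIs. In the 22 dendritic cells of young CA, Il1b had 214 CPM and Il1rn 137 CPM. Aged CA had 5 dendritic cells, too few for a level, with 33 Il1b, 5 Il1r2 and 1 Il1rn UMIs. In T or NK cells Il1b was at 3.69 CPM or less in each library, while Casp1 was at 31.5 to 72.2 CPM.

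**Figure D5:**
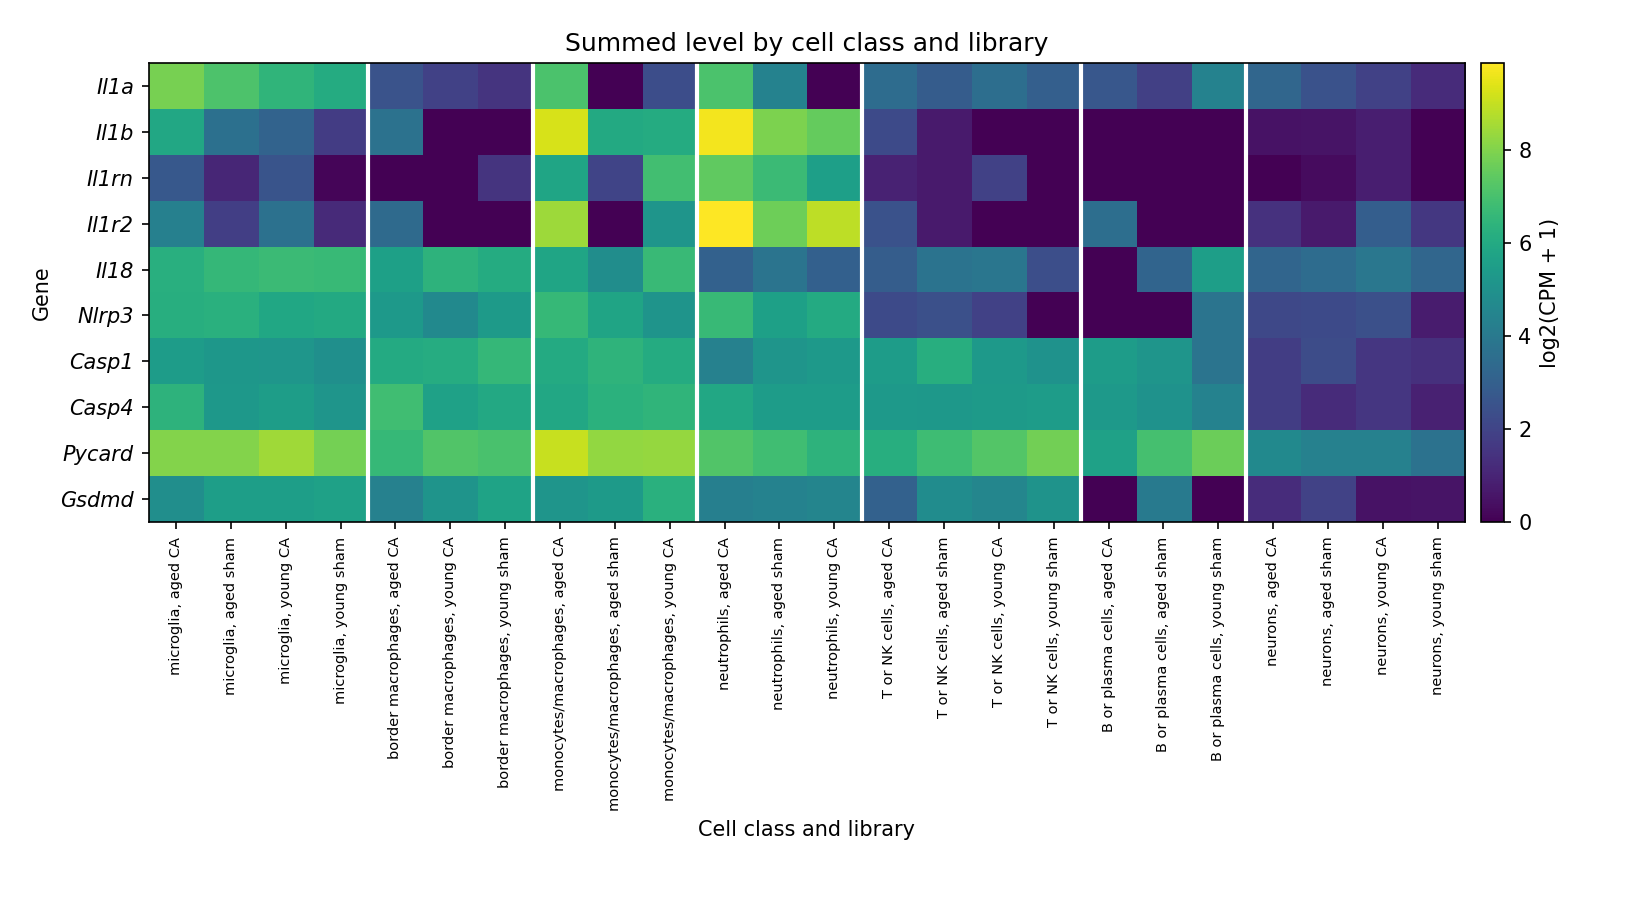
Summed level of each gene as log2(CPM + 1) for 7 cell classes in each library that held at least 20 of their cells; dendritic cells are not drawn. Of the classes drawn, Il1b, Il1rn and Il1r2 were brightest in monocytes or in neutrophils in aged CA, aged sham and young CA, Il1a was brightest in microglia, and Pycard was bright in microglia and monocytes.

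The wider pathway was described from a list of 45 receptors, ligands, transducers, sensors and executioners, of which 41 were found under their symbol. In aged microglia 31 reached 10 CPM, 6 were called higher after CA and 1 lower, beside 6.33% and 10.2% of all measured genes. The higher genes were Il18rap, a subunit of the interleukin-18 receptor (17.7-fold), Il18bp, a secreted binder of interleukin-18 (9.12), the guanylate-binding proteins Gbp2 (7.88) and Gbp5 (3.51), Irak3, a brake on interleukin-1 receptor signalling (2.19), and Pstpip1 (2.14). Nlrp1a, an inflammasome sensor of rodents, was lower at 0.445. In young microglia 31 reached the level, beside 6.47% and 3.22% of all genes 4 were called higher after CA and 0 lower, namely Il18rap (15.6), Pstpip1 (3.88), Il18bp (3.21) and Gbp2 (2.05). Il18rap had 68.8 CPM in aged CA microglia, 3.90 in aged sham, 31.1 in young CA and 1.99 in young sham. Il18bp had 16.5, 1.81, 10.2 and 3.17 CPM in the same order. Both passed the level limit only through the CA libraries.

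For age, the wider list held 4 calls after CA and 0 in sham, and the difference between the surgeries was not tested. After CA 31 genes reached 10 CPM and 4 were called higher in aged microglia (Gbp5 at 3.32, Gbp2 at 3.02, Irak3 at 2.72 and Il18rap at 2.21) and 0 lower, beside 2.33% and 3.39% of all measured genes. In sham 28 reached it and 0 were called in either direction, beside 3.65% higher and 0.157% lower of all measured genes. Il1rap, a subunit of the signalling interleukin-1 receptor, had 25.3 CPM in aged CA and 25.8 CPM in aged sham microglia. Myd88, the adaptor of that receptor, had 34.3 CPM in aged CA and 23.3 CPM in aged sham. Median log2 ratios of the measured list were 0.32 for CA over sham in aged and 0.01 in young mice, against 0.03 and -0.07 over all measured genes. Naip2, Naip5 and Naip6, Gbp2 and Gbp5, and Nlrp1a and Nlrp1b have close relatives among which reads may be split, so their values are uncertain. Il1b overlaps the antisense gene Il1bos, and Il1a, Il1r2, Il18 and Pycard also overlap other annotated genes, and whether counting used strand was not given in the sources used here.

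Across 29 sums of a class in a library, the genes whose level followed Il1b most closely were Mcemp1 (r = 0.92), Gm14548, Olr1, Ifitm1 and Tarm1 among 13419 genes compared. Il1r2 ranked 9 and Il1rn ranked 10 (r = 0.88 for both), whereas Il1a ranked 1711 (r = 0.32). For Il18 the closest were Gab1 (r = 0.87), Tns3, Dock1, Gm27010 and Mitf, and Il1b was at r = -0.04. The sums of 1 library share its depth and its mice, so these correlations are descriptions.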

How the data were processed

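The deposited values are raw UMI counts for each gene in each barcode. Per the submitters' processing notes, the authors used Cell Ranger 7.1.0 and the genome build mm10. Positions of the genes came from GENCODE M21. Barcodes with at least 500 UMIs, 200 genes and at most 10% mitochondrial UMIs were kept. Scrublet's automatic threshold marked 2 aged CA barcodes and 0 in the other libraries, so the highest scores were marked as doublets at 0.8% per 1000 cells. Cells took the class with the greatest share of its markers seen (at least 3, by a lead of 1.5 times). Cells without that lead went to the class whose marker level, relative to the median of that class, led by 2 times. This second step was added after class counts had been seen. Cells left as mixed were 1.59% of aged CA, 8.17% of aged sham, 1.35% of young CA and 1.42% of young sham. The members and lists were chosen with earlier results of these data known. The named genes are all 10 genes and any gene of the list at 10 CPM in microglia; Ccl3, Ccl4, Tnf and P2ry12 fall outside this rule and were chosen with values of these data seen. CPM have exact Poisson intervals, ratios exact conditional binomial ones, and shares Clopper-Pearson ones. With 1 library a group there are no p-values. Ratios, their intervals and 2-fold calls were tested on simulated Poisson sums scaled by the genes left unchanged. That test did not cover the cell classes, the thinning, the scaling by class total or the spread over cells. Alternatives included edgeR's TMM factors. Python 3.11.15, scanpy 1.11.5 and scipy 1.17.1 were used. Libraries held 70924569 (aged CA), 44277472 (aged sham), 115892682 (young CA) and 72648041 (young sham) UMIs.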

Additional observations from a re-analysis of the deposited data

Results flagged for a closer look

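For 8 genes in microglia the difference ran in opposite directions in the 2 settings compared, with counting intervals that lay on opposite sides of 1. They came from the 10 genes and the 41 found of the wider list. The share of all measured genes that did so was not counted, so the 8 are no result about this pathway. Small shifts also pass intervals that cover counting error only. The difference between the settings was not tested, since each group was 1 library. The CA over sham ratio of Il18 was 0.771 in aged and 1.04 in young mice. The aged over young ratio of Pycard was 0.744 after CA and 1.17 in sham. In the wider list, aged over young was 1.27 after CA and 0.860 in sham for Ikbkb, 1.27 and 0.829 for Irak1, 1.39 and 0.928 for Naip6, 1.12 and 0.925 for Gsdme, 1.09 and 0.849 for Map3k7, and 1.08 and 0.898 for P2rx7. The CA over sham ratio of P2rx7 was 1.15 in aged and 0.957 in young mice, and the young value was 1.05 with TMM scaling, 1.09 with the mean over cells and 1.03 with thinned cells.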

How the results depend on the processing

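Each of the 40 ratios of a gene was recomputed under 14 alternatives, 3 of them chosen after seeing the data (cells placed by marker level left out, microglia with S100a8, S100a9, Ccr2 or Ly6c2 UMIs left out, and the 5 cells with most UMIs left out). Of 560 recomputed ratios 550 kept their direction and 0 called ratios reversed. The 10 others were of Nlrp3, Pycard, Gsdmd, Il1rn and Casp4 near 1. The sizes were less stable, as 94 of the 560 lay outside the counting interval of the reported ratio. For CA over sham in young mice, log2 ratios ran from 0.52 to 2.20 for Il1b, with 1.71 reported. They ran from 0.96 to 3.69 for Il1r2, with 3.24 reported, and from 0.57 to 7.80 for Il1rn, with 5.60 reported. In aged mice the Il1b value ran from 1.67 to 3.00, with 2.35 reported. The count of genes called higher with age in sham was 2, and became 0 with the mean over cells of CPM, 0 with 10 CPM added to both groups, 4 with genes at 1 CPM or more and 1 without the 5 highest cells, where Il1b was under 10 CPM in both groups. The count called higher after CA in young mice was 1, and became 0 with 10 CPM added and 3 with genes at 1 CPM or more. The count called higher after CA in aged mice was 3, and became 2 with 10 CPM added, where Casp4 was lost, and 4 with genes at 1 CPM or more. The shares of all measured genes called under these settings are not given, so the changed counts are no result about the genes. The cause was not tested. TMM scaling moved the median log2 ratio of all measured genes to 0.18 for CA over sham in aged mice, against 0.03 as reported, and to 0.07 in young mice, against -0.07. No paired analysis was possible because each group was 1 library. Il1rn had 6 UMIs in young sham microglia, so its ratios there have wide counting intervals.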
